A study of Mus musculus with 2 samples.

Results

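Exonic regions outside promoters were the accessible regions that lay more than 1 kb from every protein-coding transcription start site (TSS) and overlapped an exon of a protein-coding transcript by at least 1 bp. They were found by DNase-seq, which maps open chromatin from the ends of DNA cut by DNase I, in hippocampal tissue of female B6CASTF1/J mice aged 2 months. B6CASTF1/J mice are a first-generation cross between the C57BL/6J and CAST/EiJ strains. The labels name no treatment or engineered allele, 1 label calls the tissue a layer of the hippocampus and another the hippocampus, and the layer is not named. There is 1 group of 2 libraries, labelled replicates 1 and 2. They share 1 donor record but have their own biosample records, and since nothing names separate animals, the spread between them may be technical. Of 58484 regions with a peak in both libraries, 40566 lay outside promoters, and 2677 of these (6.599%, 95% Wilson interval 6.36 to 6.84) overlapped an exon. Another 16385 lay in introns and 21504 lay outside protein-coding transcripts. The exonic regions were selected on the presence of a peak in both libraries, so the count of shared regions and the peak values are given as a description, with no test.

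Most DNase I hypersensitive sites mark promoters, enhancers and insulators, where transcription factors keep nucleosomes away. Exons are best known for what they encode, yet coding exons and untranslated regions (UTRs) can also bind transcription factors, and some exons are enhancers of their own gene or of a neighbour. A footprint is a short stretch inside a hypersensitive site that is cut less than its surroundings, as when a bound protein covers it. The hippocampus holds mainly glutamatergic granule and pyramidal neurons, with interneurons, glia and vessels beside them.

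The libraries differed in size, which touches every count of shared regions. Replicate 1 had 129779 peaks and 227153 footprints, and replicate 2 had 71895 peaks and 118610 footprints. The files and labels give no read depth. Promoters of all 16 listed markers of forebrain glutamatergic, dentate, CA1 and CA3 neurons were accessible in both libraries. The same held for 4 of 8 astrocyte and oligodendrocyte markers, 2 of 6 microglia and vessel markers and 0 of 7 markers of other tissues. Among markers not accessible in both were Gfap, Aldh1l1, Mog, Cx3cr1, P2ry12 and Cldn5. In tissue of mixed cells, a site open in few cells and a site weakly open in many cannot be told apart.

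The sequences of 6 exonic regions are given on the GRCm38 assembly (RefSeq GRCm38.p6, plus strand). They were picked for high values or many footprints and are not typical ones. Capitals mark bases that lay in a footprint in both libraries. The first 3 are the strongest by mean rank of peak value among the 1231 regions of at most 300 bp with no UTR base and under 10% of 31-mers that occur more than once in the assembly. Synpo2l and Capn2 are the strongest of that set with a CTCF motif, and Numbl, with Inpp5b, holds the most footprints.
Inpp5b, chr4:124751361-124751660: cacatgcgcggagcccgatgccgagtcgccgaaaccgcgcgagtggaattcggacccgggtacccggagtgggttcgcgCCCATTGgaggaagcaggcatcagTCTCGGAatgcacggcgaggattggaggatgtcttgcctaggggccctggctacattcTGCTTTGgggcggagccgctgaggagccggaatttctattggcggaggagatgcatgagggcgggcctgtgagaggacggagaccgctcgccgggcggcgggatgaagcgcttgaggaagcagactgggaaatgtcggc
Notch4, chr17:34587461-34587740: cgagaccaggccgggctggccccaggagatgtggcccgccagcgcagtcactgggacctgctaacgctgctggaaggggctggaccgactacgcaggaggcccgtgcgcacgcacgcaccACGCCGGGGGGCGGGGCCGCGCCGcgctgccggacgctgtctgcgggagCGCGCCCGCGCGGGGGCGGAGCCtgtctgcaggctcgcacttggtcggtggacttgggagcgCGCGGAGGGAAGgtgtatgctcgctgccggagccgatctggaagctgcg
Sptbn4, chr7:27361461-27361680: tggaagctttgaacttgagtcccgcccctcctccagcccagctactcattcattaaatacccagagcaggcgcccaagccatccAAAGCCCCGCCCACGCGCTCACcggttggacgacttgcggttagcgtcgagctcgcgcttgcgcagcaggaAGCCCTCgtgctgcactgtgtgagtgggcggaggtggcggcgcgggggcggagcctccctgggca
Synpo2l, chr14:20661061-20661300: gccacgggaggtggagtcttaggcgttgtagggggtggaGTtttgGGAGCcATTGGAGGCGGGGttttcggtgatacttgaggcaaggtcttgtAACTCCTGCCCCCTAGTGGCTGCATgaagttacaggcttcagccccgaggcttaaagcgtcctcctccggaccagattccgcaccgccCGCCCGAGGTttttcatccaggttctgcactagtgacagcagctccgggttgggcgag
Capn2, chr1:182489841-182490060: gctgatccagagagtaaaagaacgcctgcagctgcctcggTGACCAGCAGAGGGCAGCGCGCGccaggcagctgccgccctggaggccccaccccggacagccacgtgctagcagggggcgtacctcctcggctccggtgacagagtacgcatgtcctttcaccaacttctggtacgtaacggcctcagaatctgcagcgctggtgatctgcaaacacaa
Numbl, chr7:27266581-27266860: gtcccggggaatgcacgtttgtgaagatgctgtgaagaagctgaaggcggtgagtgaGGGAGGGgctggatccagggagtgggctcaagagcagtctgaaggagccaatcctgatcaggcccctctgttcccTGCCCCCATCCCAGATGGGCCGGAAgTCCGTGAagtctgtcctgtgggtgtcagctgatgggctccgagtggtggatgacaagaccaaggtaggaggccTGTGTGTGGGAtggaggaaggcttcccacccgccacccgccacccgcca

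The regions of Inpp5b, an inositol polyphosphate 5-phosphatase, Notch4, a Notch receptor best known from vessels, and Synpo2l, an actin-associated protein of muscle, were coding over their full length (300, 280 and 240 bases). In these 3, 21, 59 and 55 coding bases lay in footprints of both libraries. The Notch4 stretch was 74.3% GC, and its longest capital run spans a match to the SP/KLF motif GGGCGGG. In Synpo2l, with peak values of 6.18 in replicate 1 and 4.15 in replicate 2, the CTCF motif lay in coding sequence at 20661162 to 20661173, inside a footprint of replicate 1 (20661155 to 20661179) and a footprint of replicate 2 (20661155 to 20661181). In Capn2 (5.47 and 3.11), which encodes the catalytic subunit of calpain-2, the CTCF motif at 182489884 to 182489895 lay in the intron, also inside a footprint of each library. Only 84 of its 220 bases, from 182489965 to 182490048, were coding, and 0 of these lay in a footprint of both libraries. The Sptbn4 region covers the end of a coding exon and the intron next to it, with 114 of 220 bases coding. Of the 29 bases in footprints of both libraries there, 7 were coding, and the longer capital run holds the SP/KLF motif on the minus strand. Sptbn4 encodes the beta-IV spectrin of the axon initial segment. The Numbl region (3.85 and 2.87), from the gene of an endocytic adaptor related to Numb, spans coding sequence of a pair of exons, 124 bases in all. There, 18 of the 50 bases in footprints of both libraries were coding.

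Peak values of exonic regions, the authors' signal on a scale that is not stated, had a median of 1.105 in replicate 1 (quartiles 0.743 and 1.66) and 0.980 in replicate 2 (quartiles 0.712 and 1.40). The highest values were 28.9 and 32.4. Intronic regions had medians of 1.105 and 0.867, and intergenic regions 1.06 and 0.815. Exonic regions were therefore level with intronic ones in replicate 1 and higher in replicate 2. The values of exonic regions in the libraries ranked alike (Spearman rho 0.79 over 2677 regions, which share their peak calls and their sequence composition). The median width was 220 bp in exonic, intronic and intergenic regions, and the upper quartiles were 280, 264 and 272 bp. Of the exonic regions, 48.1% (46.2 to 49.97) were in the shorter peak list of both libraries, where 49.1% of all shared regions outside promoters were. Membership did not follow the peak value alone. A B4galt5 region (0.221 and 0.310) was in both shorter lists, whereas a Dnajb12 region (4.42 and 1.69) was not. Replicate 1 alone had another 2789 exonic regions with a median value of 0.557, and replicate 2 alone had 734 with a median of 0.568, below the medians of the shared ones. Of all exonic regions of replicate 1, 49.0% (47.7 to 50.3) were shared, against 37.3% (36.9 to 37.8) of its intronic ones. For replicate 2 the shares were 78.5% (77.1 to 79.8) of exonic and 84.4% (83.9 to 84.9) of intronic regions, so the order of the classes depended on the library.

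**Figure D1:**
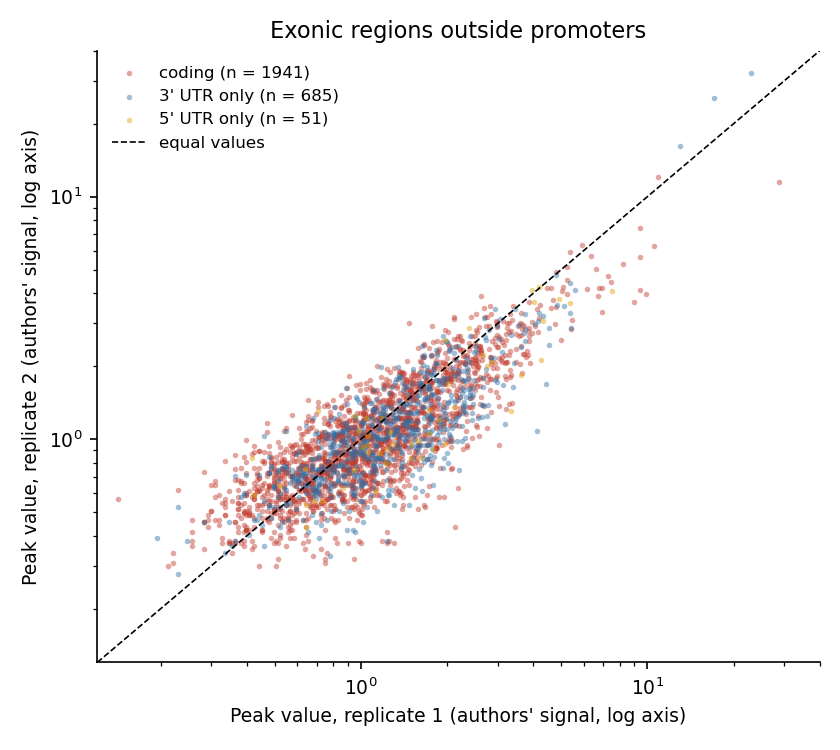
Peak value of each of the 2677 exonic regions in replicate 1 (x axis) and replicate 2 (y axis), both log axes in the authors' signal, coloured by the part of the exon they overlap. Most points lie between 0.4 and 4, and 5 regions have values over 10 in both libraries: 3 of 3′ UTR, in Cers5, Lars2 and Ubqln1, and 2 over coding sequence of predicted genes, Gm10722 (28.9 and 11.6) and Gm11168 (10.9 and 12.1), where 100% of the 31-mers are repeated.

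The strongest exonic regions included 3 in 3′ UTRs. In the last exon of Cers5, a ceramide synthase gene, a region of 280 bp (chr15:99735641-99735920) had values of 23.1 and 32.4 in replicates 1 and 2. It ranked 4 and 2 among all 40566 regions outside promoters, yet held only 3 and 2 footprints. In the 3′ UTR of Ubqln1, which encodes a ubiquitin-binding shuttle of the proteasome, a region (chr13:58177601-58177820) had values of 13.0 and 16.2. Neither region held a 31-mer that occurs more than once on the assembled chromosomes, a count that finds exact copies only. Whether reads of other loci contribute to the values of these regions was not tested. The 3′ UTR region of Lars2, the mitochondrial leucyl-tRNA synthetase (chr9:123461881-123462140), had values of 17.1 and 25.4, and 59.6% of its 31-mers were repeated. The strongest region in replicate 1 lay at the predicted gene Gm10722 (chr9:3002021-3002220), with values of 28.9 and 11.6. There 100% of the 31-mers were repeated and 11.0% of the bases were exonic. Gm11168, named after its values were seen, had 10.9 and 12.1, with 100% of the 31-mers repeated as well. Values at repeated sequence can hold reads of other copies, and the placement of such reads is not described in the labels. Altogether 76 exonic regions (2.84%, 2.27 to 3.54) had 10% or more repeated 31-mers, against 1.98% (1.78 to 2.20) of intronic regions.

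The other strong regions with little repeated sequence lay in coding genes of varied function. Angptl6, which encodes a secreted angiopoietin-like protein, had a region wholly inside coding exon 2 of 6 (chr9:20878081-20878540) with values of 9.39 and 7.42 and 9 and 10 footprints. Phf19, a Polycomb-like subunit of the PRC2 complex, had values of 10.6 and 6.24 at chr2:34904981-34905460, but only 2.29% of that region was exonic. Inpp5b had 9.43 and 5.65, and Prdm2, a PR-domain zinc finger gene, 8.22 and 5.28. Shank1, a scaffold of the postsynaptic density, had 6.36 and 5.69 in its last exon (chr7:44360041-44360340), a region that also overlaps an exon of 1700008O03Rik. Notch4 had 5.93 and 6.32, Clec11a, a secreted lectin-like growth factor, 6.61 and 5.05, and Lrrc14, a leucine-rich repeat gene, 7.30 and 4.72. Of these 8 regions, 7 were higher in replicate 1, the exception being Notch4. The Angptl6 region lay 1187 bp from the nearest protein-coding TSS, the Clec11a region 1302 bp and the Prdm2 region 32315 bp. All 8 were in the shorter peak lists of both libraries.

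Most of the regions overlapped coding sequence by at least 1 bp, but most of their bases were not coding. Of 689723 bases in all exonic regions, 268301 were coding, and 1045 region middles lay in coding sequence. Coding sequence was overlapped by 1941 regions (72.5%, 70.8 to 74.2), 685 touched 3′ UTR but no coding sequence (25.6%, 24.0 to 27.3) and 51 touched only 5′ UTR. Median values were 1.06 and 0.960 for coding regions, 1.19 and 1.03 for those in 3′ UTR only, and 1.49 and 1.06 for those in 5′ UTR only. The exon with most overlap was internal in 1416 regions (52.9%), the last in 1165 (43.5%), the first in 47 and the only exon in 49. The window around TSSs takes out most first exons by construction. Of all regions, 1093 (40.8%) lay wholly in exonic sequence, 317 (11.8%) wholly in coding sequence, and 149 (5.57%) had under 10% of their bases in an exon. The wholly coding regions had medians of 0.902 and 0.929, a GC content of 61.6% and a footprint in both libraries in 67.8% (62.5 to 72.7). The middle base lay in an exon in 1820 regions (68.0%), in an intron in 805 (30.1%) and outside protein-coding transcripts in 52.

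Counted by their middle base, regions were denser in exons than in introns. Exons outside promoters held 29.5 region middles per Mb, introns 18.9 and intergenic sequence 13.4, a ratio of 1.56 between exons and introns. In replicate 1 alone the densities were 64.97, 50.3 and 33.7 per Mb, and in replicate 2 alone 41.3, 22.7 and 16.4. The order of the compartments was the same in both libraries, and the ratio of exons to introns was 1.29 in replicate 1 and 1.82 in replicate 2. Coding sequence held 35.5 middles per Mb and 3′ UTR 23.8. The 1.01 Mb of 5′ UTR outside promoters held 55.5 per Mb, from 56 middles. Internal exons held 29.4 per Mb and last exons 28.5 per Mb. Single exons held 40.8 per Mb from 52 middles, and first exons 88.2 per Mb, but from 40 middles in the 0.453 Mb of them outside promoters. With each gene cut into 5 equal parts, the part at the 3′ end held 53.0% of the regions and the part at the 5′ end 5.98%, but most exonic sequence also lies at the 3′ end. Per Mb of exon, the parts from the 5′ to the 3′ end held 37.2, 32.5, 29.4, 28.1 and 29.1 middles. Exon density on the X chromosome was 8.52 per Mb, below the autosomes, which ran from 21.8 to 39.7. The X held 33 exonic regions (1.23%, against 1.34% of intronic and 2.26% of intergenic regions).

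Around internal exons, the regions covered the start and the end of the exon about equally often. In the 1416 regions whose main exon was internal (median exon length 147 bp), 58.2% covered the first base of the exon and 58.5% the base at its end. At 100 bp past the start the share was 63.6%. Outside the exon it was 30.2% at 100 bp upstream and 30.5% at 100 bp downstream. Each region was kept because it overlaps an exon, and its main exon is the one with most overlap, so higher coverage inside the exon than outside is set by the selection. The position of lowest FDR was the midpoint between the first and last bases tied at that FDR in the deposited base lists. Where a region had no listed base, its middle was used. This position lay in the exon in 46.6% of the 1416 regions in replicate 1 (44.0 to 49.2) and 49.7% in replicate 2 (47.1 to 52.3). It lay upstream in 26.4% and 23.9%, and downstream in 26.98% and 26.5%. Over all exonic regions, this position lay in exonic sequence in both libraries in 1685 (62.9%) and in neither library in 740 (27.6%). Those 740 regions had medians of 1.23 and 1.06, above the 1.09 and 0.980 of the 1685.

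**Figure D2:**
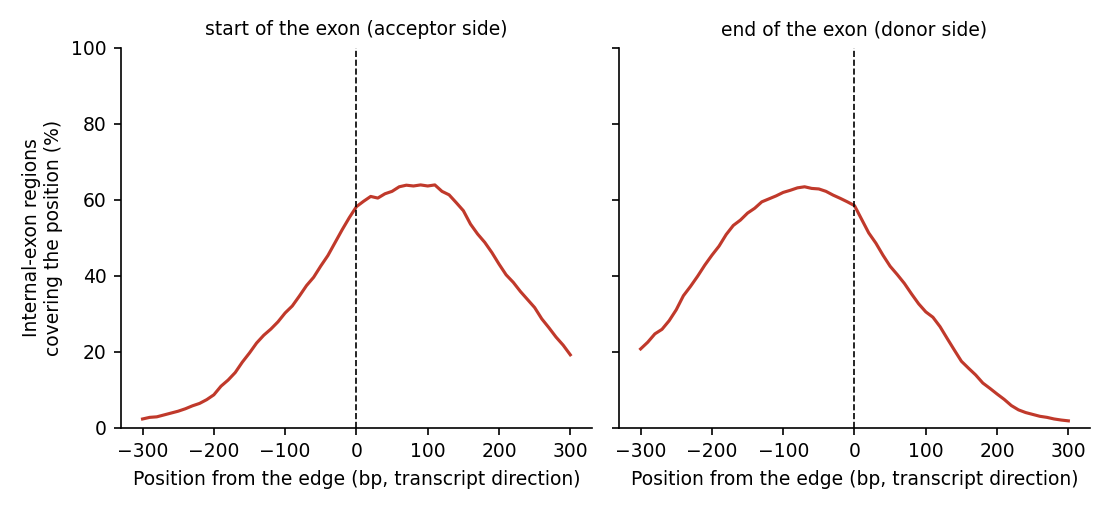
Share of the 1416 regions with an internal main exon that cover each position around the start (left) and the end (right) of that exon; x axis, position in bp in transcript direction, 0 at the edge; y axis, percent of regions. The curves at the start and the end mirror each other, with 58.2% and 58.5% at the edges; that coverage is higher inside the exon follows from the choice of the regions.

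Footprints were more common in exonic than in intronic regions in replicate 2, and the shares lay close together in replicate 1. A footprint in both libraries was present in 2044 exonic regions (76.4%, 74.7 to 77.9), against 71.5% (70.8 to 72.2) of intronic and 71.0% (70.4 to 71.6) of intergenic regions, with 71.6% over all regions outside promoters. In replicate 1 the shares were 90.3% (89.2 to 91.4) of exonic and 90.6% (90.1 to 91.0) of intronic regions, and in replicate 2 they were 82.0% (80.5 to 83.4) and 76.6% (75.9 to 77.2). The intervals of the classes overlapped in replicate 1 and not in replicate 2. The share with a footprint in both libraries was above the intronic one in each of 6 ranges of GC content, by 1.10 to 4.98 percentage points. The intervals were apart only at 55 to 60% GC (76.59 to 82.65 against 73.16 to 76.39) and overlapped in the other ranges. Against intergenic regions the order varied: the exonic share was lower at 50 to 55% GC (73.99% against 74.4%) and at 60 to 65% GC (78.2% against 79.7%), both were 80.5% at 65% GC or more, and the exonic share was higher in the other 3 ranges. These shares were not matched for the width of the regions. Footprint bases took up 108.6 and 70.8 per kb of exonic region in replicates 1 and 2, and 107.1 and 63.2 per kb of intronic region. Inside the coding regions, coding sequence held 91.6 footprint bases per kb in replicate 1, below the 116.7 per kb of the same regions outside exons. In replicate 2 the values were 66.1 and 68.9 per kb, so that the difference between coding and flanking sequence was small there. The most footprints, by the lower count of the libraries, were in Angptl6 and Phf19, followed by Fbxl22, an F-box gene, with 7 and 7 in 360 bp, and by Fstl3, a follistatin-like inhibitor of activin, with 8 and 7. Btd, the biotinidase gene, had 8 and 7 in a region of 960 bp. These 3 are the strongest by mean rank of the 5 regions whose lower count was 7. The other two, named after their counts were seen, were in the last exon of Cacna1a, with 9 and 7, and in St8sia3, with 7 and 8.

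**Figure D3:**
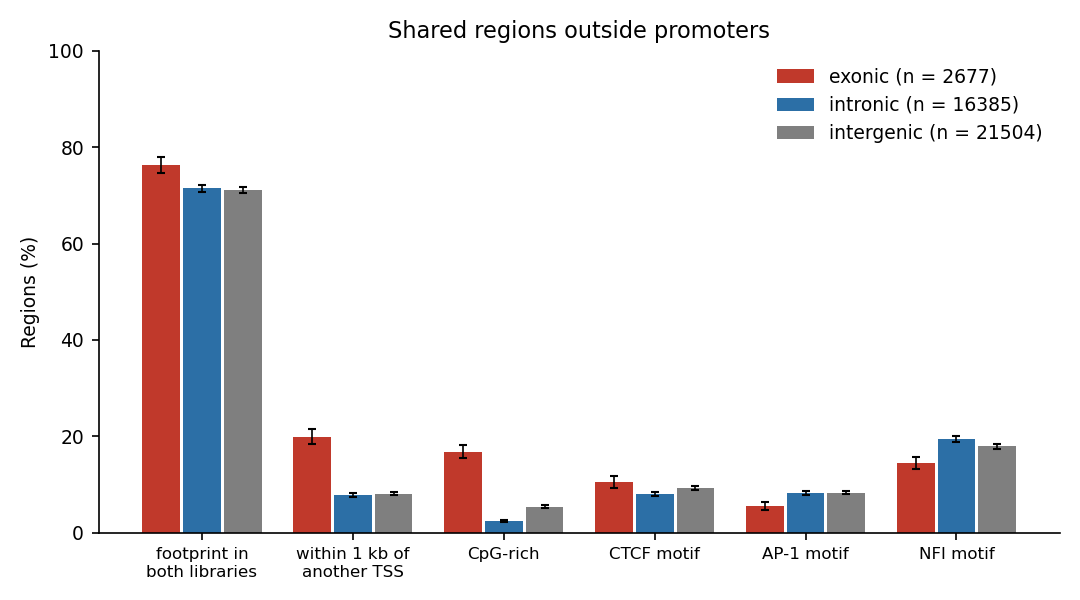
Percent of exonic, intronic and intergenic regions outside promoters with each feature; bars are shares of regions and whiskers are 95% Wilson intervals, which cover counting error only. Exonic regions are higher in nearness to another TSS (19.95% against 7.82% and 8.13%) and in CpG-rich sequence (16.8% against 2.45% and 5.45%), and lower in AP-1 and NFI motifs.

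Exonic regions were richer in G, C and CpG than other regions. Median GC content was 54.4%, against 50.75% in intronic and 50% in intergenic regions. The ratio of observed to expected CpG was 0.368, against 0.244 and 0.270. By a GC content of at least 55% and a CpG ratio of at least 0.6, 451 exonic regions (16.8%, 15.5 to 18.3) were CpG-rich, against 2.45% (2.22 to 2.70) of intronic and 5.45% (5.15 to 5.76) of intergenic regions. The CpG-rich share was 40.8% among the 314 exonic regions within 2 kb of a TSS and 6.99% among the 758 regions 20 to 100 kb away. Exonic regions also lay nearer to protein-coding TSSs, at a median of 10929 bp, against 27233 bp for intronic and 53458 bp for intergenic regions. How far this distance accounts for the difference in CpG between the classes was not tested. Of the CpG-rich exonic regions, 81.8% had a footprint in both libraries and 60.3% were in both shorter lists.

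The ratio between the libraries rose with GC content in exonic, intronic and intergenic regions alike. The median log2 ratio of the replicate 2 value over the replicate 1 value was -0.12 in exonic, -0.27 in intronic and -0.29 in intergenic regions, and 40.4% (38.5 to 42.3) of exonic regions were higher in replicate 2, against 29.6% (28.9 to 30.3) of intronic ones. Among exonic regions under 45% GC the median was -0.43, and among those of 65% GC or more it was 0.16. Intronic regions of the same GC content had medians of -0.54 and 0.00, and intergenic ones of -0.56 and 0.01. The exonic median was above the intronic one in each of the 6 GC ranges compared, by between 0.03 and 0.16. CpG-rich exonic regions had a median of 0.11 and wholly coding ones of 0.12. How far GC content accounts for the differences between the classes in replicate 2 was not tested.

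**Figure D4:**
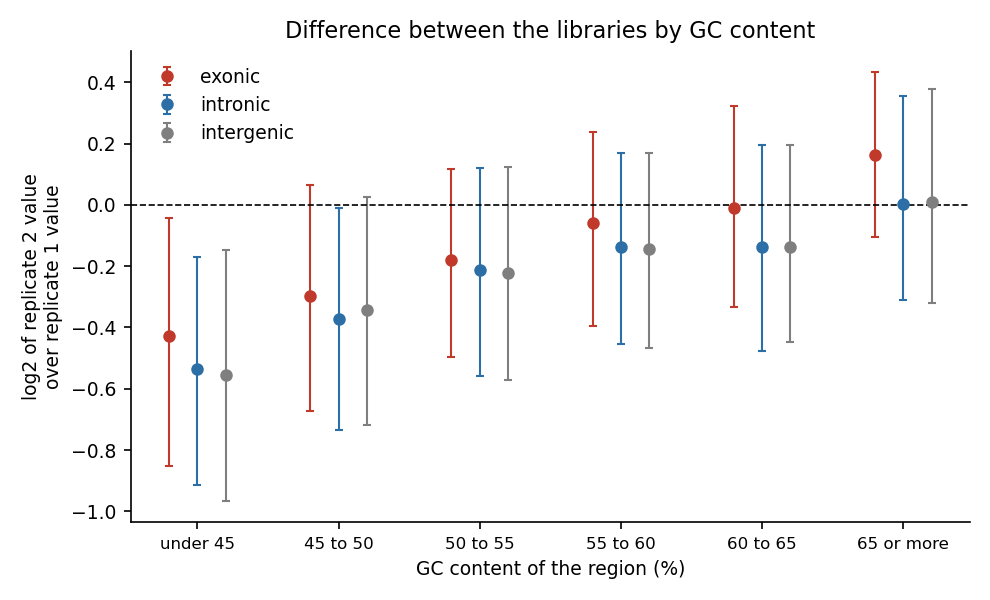
Median log2 ratio of the replicate 2 value over the replicate 1 value (points; bars span the quartiles) by GC content of the region, for exonic, intronic and intergenic regions. The ratio rises with GC content in all classes, from -0.43 to 0.16 in exonic regions.

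The 3 largest differences towards replicate 2 were in regions with values under the exonic median in both libraries. Gm3435 had 0.142 in replicate 1 and 0.568 in replicate 2 (log2 ratio 2.00), and 70.5% of the 31-mers of that region were repeated. Ptprk, a receptor-type tyrosine phosphatase gene, had 0.230 and 0.619 (1.43), and Slit2, an axon guidance ligand, 0.283 and 0.733 (1.37). In the other direction, the 3 regions were above the exonic median in replicate 1, and Fam13a was in the shorter list of both libraries. Calhm5, of the calcium homeostasis modulator family, had 2.13 and 0.433 (-2.30), Fam13a 4.13 and 1.08 (-1.93), and Ckap5, a microtubule polymerase, 1.31 and 0.372 (-1.82). The 3 regions higher in replicate 1 had a GC content of 45.3% to 47.0%, and the 3 higher in replicate 2 of 50.4% to 59.3%.

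Motifs were searched on both strands within 75 bp of the middle of each region, so their letters describe sequence and do not show binding. The CTCF motif, the consensus of the insulator protein, was present in 280 exonic regions (10.5%, 9.36 to 11.7). It was found in 7.96% (7.55 to 8.38) of intronic and 9.26% (8.88 to 9.65) of intergenic regions, and in 8.81% of all regions outside promoters. The exonic and intergenic intervals overlapped over all regions and in each of the 6 GC ranges. The exonic share was above the intronic one in each range, by 1.35 to 3.87 percentage points. The largest gap was 12.3% against 8.46% at 55 to 60% GC. Exonic and intronic intervals overlapped under 45% GC and at 60% GC or more. With the middle base required to lie in the exon, the shares came to 9.12% (7.88 to 10.5) and 8.22% (7.82 to 8.64), and the intervals then overlap. Exonic regions with the motif were strong, with medians of 1.37 and 1.23. Of these regions, 65.4% were in both shorter lists and 87.5% had a footprint in both libraries. The motif was commoner in regions of 3′ UTR only (13.9%) than in those that overlap coding sequence (9.43%). It was in 3.15% of wholly coding ones (10 regions), whose median GC content was 61.6%. Among all exonic regions it was in 7.47% at 60 to 65% GC and in 4.67% at 65% GC or more.

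Several motifs of neuronal and glial factors were less frequent in exonic than in intronic regions. AP-1 (TGANTCA), the site of Fos and Jun proteins, was in 5.45% (4.66 to 6.38) of exonic against 8.28% (7.87 to 8.71) of intronic regions. The Neurod E-box (CAGATG), of basic helix-loop-helix factors, was in 24.1% (22.5 to 25.8) against 28.4% (27.7 to 29.1), and NFI (TTGGCA), of nuclear factor I proteins, in 14.4% (13.1 to 15.8) against 19.5% (18.9 to 20.1). MEF2, of the myocyte enhancer factors, was in 0.934% (0.633 to 1.38) against 1.67% (1.48 to 1.87). The GC-rich SP/KLF motif (GGGCGGG) went the other way, with 5.94% (5.11 to 6.90) against 3.17% (2.92 to 3.45). RFX (GTTGCCA) was in 3.66% (3.01 to 4.44) against 4.88% (4.56 to 5.22). The intervals of the 2 classes overlapped for CRE (TGACGTCA), the cAMP response element, at 0.224% (0.103 to 0.488) against 0.324% (0.247 to 0.423), and for CAGCTG at 18.2% (16.8 to 19.7) against 17.7% (17.1 to 18.3). ETS (CCGGAAG) was in 1.38% (1.00 to 1.90) of exonic against 0.806% (0.680 to 0.955) of intronic regions. NRF1 (GCGCATGC) was in 1.31% (0.942 to 1.81) against 0.714% (0.596 to 0.855). Both were higher than in introns, but the intergenic intervals overlapped the exonic ones (ETS 1.34%, 1.20 to 1.51, and NRF1 0.842%, 0.728 to 0.973). EGR (GCGTGGGC) at 1.31% against 0.958%, YY1 (AAGATGGC) at 1.12% against 1.08% and SOX (AACAAAG) at 2.43% against 3.20% had intervals that overlapped. Against intergenic regions the intervals did not overlap for EGR (0.71%, 0.608 to 0.833), SOX (3.41%, 3.18 to 3.66) and CAGCTG (16.2%, 15.7 to 16.7). For MEF2 they did (1.51%, 1.36 to 1.68). Base composition differs between the classes and was not matched here.

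Another annotated TSS, of a transcript that is not protein-coding, lay within 1 kb of 534 exonic regions (19.95%, 18.5 to 21.5), against 7.82% (7.42 to 8.24) of intronic, 8.13% (7.78 to 8.51) of intergenic and 8.79% of all regions outside promoters. In 401 of the 534 such a TSS belonged to a transcript of the same gene. Counting each kind that was near, it was of a retained-intron transcript in 245, of a processed transcript in 170, of an antisense RNA in 90 and of a miRNA in 26. Exons also lie closer to such TSSs than introns do: 9.58% of exonic sequence outside promoters was within 1 kb of one, against 4.77% of intronic sequence. By region middles, exonic sequence held 45.5 per Mb within 1 kb of another TSS and 27.8 per Mb farther away. Both values were above those of introns, 32.3 and 18.2 per Mb. The Fstl3 region lay 1 bp and the Inpp5b region 7 bp from such a TSS, and the Phf19 region 74 bp. The 534 regions near another TSS had medians of 1.24 and 1.13, against 1.08 and 0.960 for the 2143 without one.

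The regions were spread over many genes. Of 20950 protein-coding genes with exonic sequence outside promoters, 2350 (11.2%) held at least 1 region. Of these, 2038 held 1, 271 held 2, 35 held 3 and 6 held 4 or more. Host genes had more exonic sequence to offer, with a median of 3.62 kb outside promoters against 2.20 kb in other genes. A host gene's own promoter was accessible in both libraries in 1752 of 2350 (74.6%, 72.8 to 76.3), against 58.6% (57.9 to 59.3) of genes with no exonic region and 78.3% (77.2 to 79.3) of genes with an intronic one. The nearest protein-coding TSS belonged to a host gene for 1864 regions (69.6%, 67.9 to 71.3) and to a neighbour for the others. The 679 regions in genes with no accessible promoter had medians of 1.11 and 1.01, near the 1.10 and 0.970 of the 1998 in genes with one. They were in both shorter lists more often (57.3% against 44.9%) and were more often CpG-rich (26.8% against 13.5%).

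Syne1, which encodes the giant nuclear envelope protein nesprin-1, held the most regions. Its 8 regions lay in 8 internal coding exons between exon 8 and exon 89 of 146. Their values ran from 0.363 to 2.21 in replicate 1 and from 0.413 to 2.35 in replicate 2, and 5 of the 8 had a footprint in both libraries. The region at exon 89 (chr10:5203901-5204160) was the highest of the 8 in both libraries. Tchh, which encodes trichohyalin of the hair follicle, held 6 regions in its last exon, 5.69 kb of exonic sequence outside promoters. They had 0.283 to 1.48 in replicate 1 and 0.454 to 1.22 in replicate 2, 1 of the 6 had 10% or more repeated 31-mers, and the Tchh promoter was not accessible in both libraries. Sptbn4 held 5 regions, all coding. Beside the strong one at exon 33 of 36 (9.46 and 4.12), the others had 0.637 to 1.83 and 0.867 to 1.54. B4galt5, a galactosyltransferase gene of glycolipid synthesis, held 5 in its last exon with values of 0.195 to 1.76 and 0.310 to 1.52. In 4 of these 5 the replicate 2 value was the higher.

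Trrap, a scaffold of histone acetyltransferase complexes, and Ubr4, an E3 ubiquitin ligase, held 4 regions each. Those of Trrap had 0.575 to 1.49 and 0.640 to 1.26, with 0 of 4 footprinted in both libraries, and those of Ubr4 0.725 to 2.09 and 0.547 to 1.34, with 3 of 4. Another 35 genes held 3 each, of which the first 4 by symbol are described here. Cacna1a, the pore subunit of the P/Q-type calcium channel, held 3: values of 3.36 and 3.12 in its last exon, with 9 and 7 footprints, and of 0.593 to 0.646 and 0.887 to 0.939 in 2 internal exons. Aak1, a kinase of clathrin adaptors, had 3 regions in its 3′ UTR with 0.539 to 1.57 and 0.774 to 1.40. 2700081O15Rik had 0.681 to 2.03 and 1.22 to 2.30. Asmt, the last enzyme of melatonin synthesis, had 0.504 to 0.946 and 0.320 to 0.764, and its promoter was not accessible in both libraries.

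**Figure D5:**
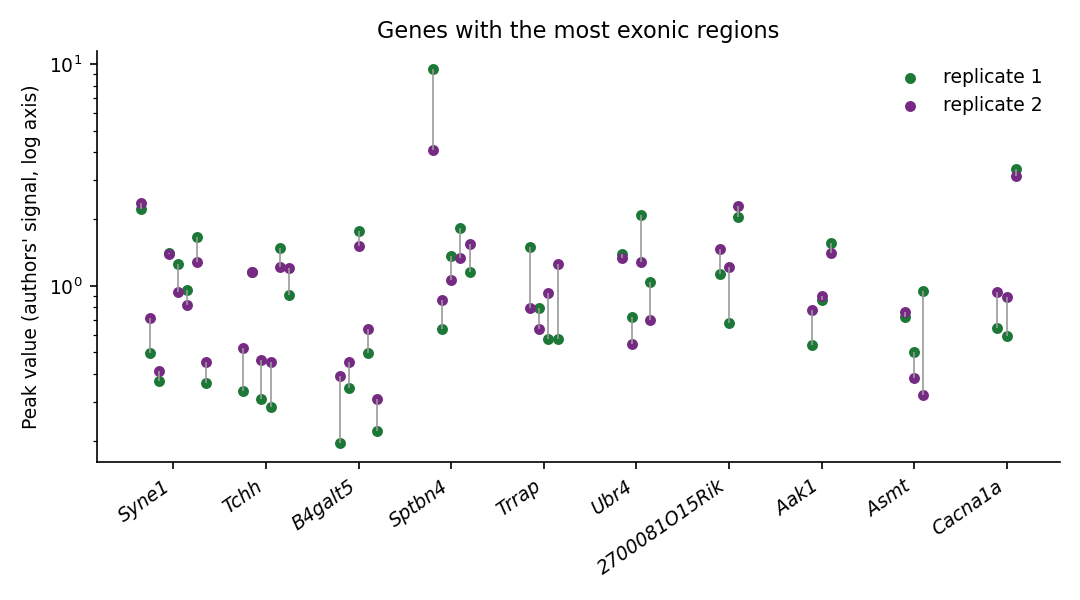
Peak values (y axis, authors' signal, log axis) of each exonic region of the 10 genes with the most, in genome order within a gene (the last 4 are the first by symbol of 35 genes with 3 regions each); green points are replicate 1, purple points replicate 2, and a line joins the values of 1 region. The Sptbn4 region at 9.46 and 4.12 is the highest, and the 8 Syne1 regions span 0.363 to 2.35.

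Lists of genes were set beside the 11.2% of all genes that held a region. Of 17 activity-regulated genes, 2 did: Jun, with a region wholly in its single exon (1.68 and 1.81), and Fosb, with 1 in its 3′ UTR (1.08 and 1.41). Arc, the activity-induced synaptic regulator, held none. Of 15 glutamatergic forebrain genes 3 did (20%, 7.05 to 45.2), the strongest being in Zbtb20, a transcription factor of CA1 identity (1.44 and 1.14), and in Mef2c (0.893 and 0.970). Bcl11b held none. Of 23 synaptic genes 6 did (26.1%, 12.5 to 46.5), led by Shank1, and Dlg1 held none. Of 18 ion channel genes 4 did, led by Cacna1a and by Scn8a, the sodium channel Nav1.6 (2.64 and 1.38), and Cacna1d held none. These 4 lists had 11.8% to 26.1% of genes with a region, and the wide intervals of lists this short include 11.2% in all but the synaptic list. Per Mb of exon, however, the synaptic genes held 43.4 regions, close to the 42.9 over all genes. The activity-regulated genes held 55.5 per Mb (3 regions), the glutamatergic forebrain genes 92.3 (7 regions) and the ion channel genes 53.4 (9 regions).

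Of 28 chromatin regulators, 6 held a region (21.4%, 10.2 to 39.5), led by the corepressor Ncor1 (3.34 and 1.84) and the remodeller Chd7 (1.98 and 1.36), and Arid1a held none. Per Mb of exon they held 37.7 regions, below all genes. Of 15 cytoskeleton genes 6 did (40%, 19.8 to 64.2), led by the neurofilament gene Nefm (1.82 and 2.13) and the spectraplakin Macf1 (2.18 and 0.629), and Ank2 held none. Per Mb of exon the cytoskeleton genes held 58.1 regions (9 regions). Of 14 GABAergic genes 1 did, the vesicular transporter Slc32a1 (1.02 and 0.867), and Dlx1 held none. Of 17 astrocyte and oligodendrocyte genes 5 did (29.4%, 13.3 to 53.1), led by Gfap, the astrocyte filament (1.75 and 0.960, in its 3′ UTR), and the myelin gene Mbp (1.41 and 1.14). Aldh1l1 held none. Per Mb of exon these genes held 92.5 regions (6 regions) and the GABAergic genes 21.9. Of 14 microglia and vessel genes 0 did (0 to 21.5%), Aif1 among them.

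Genes of other tissues held exonic regions as well, although none of the 7 marker promoters of such tissues was accessible in both libraries. Of 16 listed, 6 did (37.5%, 18.5 to 61.4), with 43.8 regions per Mb of exon. Acta1, the actin of skeletal muscle, had 2.84 and 2.19 in its last exon (chr8:123891901-123892320), and Ckm, the creatine kinase of muscle, 3.19 and 1.83 in its last exon (chr7:19421261-19421560). The promoters of both were not accessible in both libraries, and the regions were in both shorter lists. The Ckm region overlapped an annotated TSS of a transcript that is not protein-coding. The nearest such TSS to the Acta1 region was 3953 bp away. Alb held none. Among gene families, 25 of 396 Zfp genes held a region (6.31%, 4.31 to 9.15), led by Zfp771 (4.80 and 3.52) and Zfp503 (4.32 and 3.07), and Zfp1 held none. Genes were counted by annotation identifier, and the 57 clustered protocadherin symbols have 58, of which 2 held a region, Pcdhga12 (1.11 and 0.805) and Pcdhac2 (0.566 and 0.702), and Pcdha1 held none. Of 39 Hox genes 0 did (0 to 8.97%), and of 1055 olfactory receptor genes 3 did (0.284%, 0.0968 to 0.833), including Olfr1410 (0.592 and 0.867) and Olfr1382 (0.628 and 0.464), both in 3′ UTR, whereas Olfr1 held none. Of 44 collagen genes 10 did (22.7%, 12.8 to 37.0), led by Col1a1 (1.46 and 1.61) and Col15a1 (2.25 and 0.980), and Col10a1 held none. The collagen genes held 54.0 regions per Mb of exon.

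The widest regions were not the strongest. Mex3b, an RNA-binding protein gene, had a region of 1780 bp (chr7:82868341-82870120) with 1.16 and 1.19, and 6 and 9 footprints. The region of 1376 bp in B4galt5 had 0.221 and 0.310 with 0 footprints, and the 1310 bp of coding sequence in the first exon of Pcdh10, a protocadherin, 0.486 and 0.836.

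At the limits of the definition, medians were somewhat higher on the side that counted as exonic, and the differences were not tested. The 46 exonic regions in the 100 bp beyond the 1 kb limit had medians of 1.04 and 1.14, and the 47 regions over exons in the 100 bp inside it, which counted as promoters, had 0.911 and 1.05. The 68 regions with 1 to 10 bp in an exon had medians of 1.35 and 1.09, and the 73 intronic regions that ended less than 10 bp short of one had 1.20 and 1.00.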

How the data were processed

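DNase-seq peaks, footprints and per-base FDR lists were deposited by the authors per library on mm10 (GRCm38), per the labels. No aligner or caller is named there. Peak values are a signal, deposited by the authors on a scale not stated, and only rank and describe regions. The base lists deposited by the authors hold FDR values (q-values) under 0.05, and the footprint lists were used for positions. The labels do not say how reads of CAST/EiJ alleles were placed.

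The longer of the 2 peak lists per library was merged at 1 bp of overlap. Exons and TSSs came from GENCODE M21 and sequence from RefSeq GRCm38.p6. A region's value is its highest peak value. Repeated sequence means 31-mers found more than once on the assembled chromosomes. Shares carry 95% Wilson intervals, which cover counting error only; regions are not replicates, and no p-value was computed over 2 libraries. The members, gene lists and motifs were chosen with earlier results of these data known.

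Named regions were the 10 strongest by mean rank with under 10% repeated 31-mers, the 3 strongest of all, the 10 genes with most regions, the 5 regions with most footprints, the 3 with the largest ratio each way, the 3 widest and the 3 strongest each in 3′ UTR and internal coding exons. Per list they were the 2 strongest genes and the alphabetically first with none. Some genes this rule chose are not reported here. Code was tested on simulated data (8 of 8 tests gave the planted answer). Python 3.11.15, numpy 2.4.6, pandas 2.3.3 and scipy 1.17.1 were used.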

Additional observations from a re-analysis of the deposited data

How the results depend on the processing

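The ratio of region density in exons to introns ran from 1.29 to 1.82 and stayed above 1 under all 10 alternatives tried for it. Over the 7 values recomputed, 52 of 71 alternatives counted as unchanged, and 0 reversed the ratio. For shares and the ratio, this meant a move below the standard deviation between the values of each library alone. For the count of regions it meant a factor of at most 1.5. The values of 1 library alone are among the 71, so a large difference between the libraries makes more alternatives count as unchanged. For the ratio this spread was 0.375, so 1.29 and 1.82 both did. The count of exonic regions was 1246 with the shorter peak lists, and 3364 to 5446 in 1 library alone. With the middle base required in the exon, the exonic share of regions outside promoters was 4.49%, the share over coding sequence 63.96%, the share with a CTCF motif 9.12% and the share near another TSS 16.1%. Away from every annotated TSS, 68.8% overlapped coding sequence. A footprint in both libraries was found in 92.6% with the shorter lists and 83.2% with a reciprocal overlap of 50%, and a CTCF motif in 14.3% and 12.8%. With a promoter window of 500 bp, 9.40% had a CTCF motif and 24.0% lay near another TSS. With 1 library left out, the exonic share ran from 5.23% to 6.79% and coding overlap from 67.9% to 73.1%. CTCF motifs ran from 7.09% to 8.14% and nearness to another TSS from 16.6% to 19.8%. Of the exonic peaks of 1 library, 72.5% to 75.3% had a footprint of that library, a measure unlike a footprint in both libraries. In peaks of replicate 1 alone, 7.09% of exonic and 4.47% of intronic ones had a CTCF motif, and in peaks of replicate 2 alone 8.14% and 6.66%. No paired analysis was possible because there is 1 group. Depth is not stated, and the smaller peak list of replicate 2 limits what can be shared.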
